A study of Mus musculus with 6 samples.

Results

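Genes that encode histone methyltransferases, called writers here, and histone demethylases, called erasers, were examined in whole mouse embryos from control and diabetic pregnancies. Members were chosen by gene symbol alone: the Kdm, Kmt2, Kmt5, Setd, Setdb, Nsd, Ehmt, Suv39h, Ezh and Prmt families together with Carm1, Dot1l, Eed and Suz12. A gene was counted when the annotation of the array gave a probe set (a group of short probes that reads 1 transcript) its symbol and no other. The choice gave 54 genes of 18194, read by 153 probe sets of 45101, and the rule uses no measured value. The Kdm genes made up 16 erasers with 51 probe sets, and the other 38 genes, with 102 probe sets, were counted as writers, including Eed and Suz12, which are subunits needed by a writer. Suv39h1 and Ash1l were not analysed here because no probe set carried their symbol alone.

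Each group held 3 pools of total RNA, each pool made of 3 whole FVB embryos from different pregnancies, for 9 embryos per group at embryonic day 10.5. Diabetes of the dams was produced with streptozotocin, which destroys the insulin-producing beta cells, in 2 injections of 100 mg/kg, and dams with blood glucose above 250 mg/dl were mated. All embryos were morphologically normal, and the labels name the other group only as control pregnancy, without saying what those dams were injected with. Streptozotocin and the diabetes it brings about can therefore not be told apart as the exposure. One array of the type Affymetrix Mouse 430 2.0 was used per pool. A pool joins the RNA of 3 embryos into 1 value, so the spread between embryos of a pool is not seen, and in whole embryos fewer cells of a type cannot be told apart from less RNA per cell.

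Histone methylation is written on lysine and arginine residues and removed again by a separate set of enzymes, and its meaning depends on the residue. Methylation of lysine 4 of histone H3 (H3K4) marks active promoters and enhancers, and H3K36 and H3K79 methylation accompany transcribed gene bodies. H3K9 and H3K27 methylation and the trimethylation of H4K20 accompany silenced chromatin. In the embryo at midgestation the balance of H3K4 writers and of the Polycomb repressive complex PRC2, which writes H3K27 methylation, keeps the genes that pattern the body, such as the Hox clusters, active in some cells and silent in others. The labelled tissue was borne out by its markers, with signals for neural (Sox2), heart (Myl7), blood (Hba-x), somite (Meox1), mesenchyme (Prrx1) and liver bud (Afp) genes in all 6 pools. Some of these markers differed between the groups: the neural genes Sox2, Pax6 and Nes fell, at log2 fold changes of -0.61, -0.76 and -1.196 (3 of 3 listed), Tcf15 (1 of 2 somite genes) and Prrx1 (1 of 2 mesenchyme genes) fell too, and Myl7 and Myh6 (2 of 3 heart genes) and Afp (1 of 2 liver bud genes) rose. Of 3 markers of decidua and placenta, Prl8a2 had signals of 5699 to 6522 in control and 30.7 to 39.3 in exposed pools, whereas Ceacam11 and Ctsq lay between 1.0 and 16.6 in every pool, and the part of tissue make-up and of attached maternal tissue in the results below was not tested.

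More writers and erasers fell than rose in the diabetes-exposed pools. Here a gene is said to have fallen or risen when its adjusted p was under 0.05 in limma's moderated test, adjusted by Benjamini-Hochberg across the 30024 probe sets tested, and each gene is read at its tested probe set with the highest mean signal. Of the 38 writers 17 fell, 2 rose and 19 did not pass. Of the 16 erasers 8 fell, 1 rose and 7 did not pass. Among all 13956 genes tested 19.9% fell and 17.6% rose, so that the share that fell was 44.7% for writers and 50.0% for erasers against 19.9%, and the share that rose was 5.26% and 6.25% against 17.6%. In 34 of the 54 genes the 2 groups of pools did not overlap, lower in exposed pools in 27 genes and higher in 7, where 26.5% of all genes stood lower and 25.9% higher without overlap. There were 9 genes that fell at least 2-fold (Kdm6b, Ehmt2, Setd1a, Kmt2b, Kdm4b, Prmt8, Prmt5, Setd1b and Carm1) and 0 that rose by as much, beside 6.01% and 1.03% of all genes. With any 1 pool left out 12 to 19 writers and 6 to 8 erasers fell, beside 13.2% to 22.5% of all genes. Fewer rises passed with fewer pools: 0 writers rose without control replicate 1 or 2 and 1 without each of the others, and 0 erasers rose without control replicate 1, control replicate 2 or exposed replicate 3 and 2 without exposed replicate 2. The share of all genes that rose also dropped, to 11.1% and 10.8% without control replicate 1 or 2, and the fold changes stayed in place with any 1 pool left out, at 0.30 to 0.34 for Kdm7a, 0.30 to 0.41 for Prmt1 and 0.29 to 0.43 for Suv39h2 on the log2 scale.

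The median log2 fold change, exposed minus control, was -0.22 over the writers and -0.25 over the erasers, beside 0.00 over all genes. Set against the control mean, the median over writers was -0.21, -0.21 and -0.29 in exposed replicates 1, 2 and 3, and the median over erasers was -0.20, -0.28 and -0.24. Writers were the lower of the 2 in exposed replicates 1 and 3 and erasers in exposed replicate 2, so that the pools gave no common order between them. For control pools both medians lay between -0.01 and 0.01. The sizes depend on the scaling. With each array centred on its own median, the median over all genes moved to 0.30. Those over writers and erasers moved to 0.09 and 0.05. Centring shifts every gene of an array alike, so their distances of 0.22 and 0.25 under all genes could not change. Under cyclic loess normalization the medians were -0.14 over writers and -0.28 over erasers beside 0.08 over all genes, and under quantile normalization -0.14 and -0.25 beside 0.14, so that the gap between writers and erasers was wider there. The difference between writers and erasers was not tested. Under that centring 8 writers and 3 erasers fell against 8.65% of all genes, and 6 writers and 3 erasers rose against 29.4%.

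**Figure D1:**
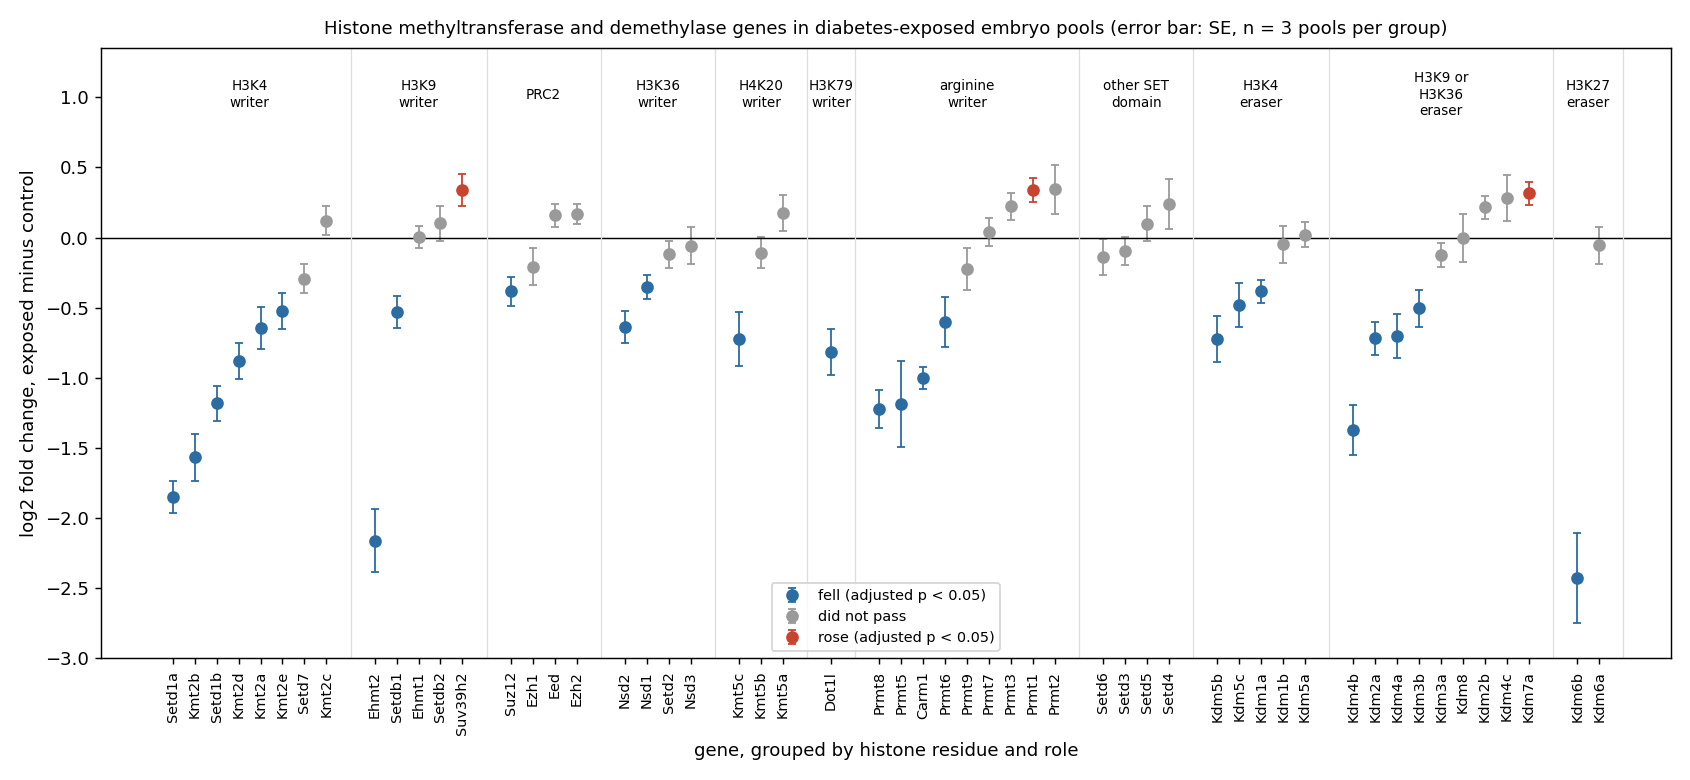
Log2 fold change (exposed minus control, vertical axis) of all 54 genes at the probe set that stands for each, ordered within 11 groups by residue and role, with standard errors from the fit of 3 pools per group. Points that fell, in blue, run down to -2.43 for Kdm6b, and the 3 points that rose, in red, lie between 0.31 and 0.34.

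The exposed arrays also differed from the control arrays in a measure of RNA and labelling quality. The ratio of 3' to middle signal over the poly-A spike transcripts, which are bacterial RNAs added to each sample, stood at 2.10, 2.07 and 2.52 for control and at 6.56, 3.47 and 7.00 for exposed pools (exact permutation test, two-sided, p = 0.1, the smallest that 3 against 3 pools allow). For Actb the ratio of 3' to 5' signal was 1.71, 1.76 and 2.19 against 10.1, 3.09 and 10.3. The groups did not overlap in either, and exposed replicate 2 was nearest to the controls in both. Exposed replicate 2 was also the exposed pool nearest to the control mean in 7 of the 17 writers and 5 of the 8 erasers that fell. Over probe sets it was so in 56.6% of the 53 of members that fell and in 64.4% of all that fell.

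With the spike ratio added to the fit as a covariate (the spike-adjusted fit), 5 writers fell (Setd1a, Setd1b, Ehmt2, Carm1 and Prmt8) and 0 erasers, 0 members rose, and 1.73% of all genes fell. At an unadjusted p under 0.05, 16 of the 54 genes passed in that fit, 5 of them erasers, beside 17.8% of all genes. The median standard error grew from 0.13 to 0.23 on the log2 scale. Of the 28 genes called without it, 25 kept their direction, and 18 of the 25 that fell kept at least 0.5 of their log2 change. These 2 counts were not set beside those of all called genes, so they do not set the members apart. The largest shift was that of Prmt5, from -1.19 to 0.46, and Setd1a hardly moved, from -1.85 to -1.91. In exposed replicate 2 alone against the controls, with the lone pool assumed to vary like the controls, 10 writers and 4 erasers fell and 0 members rose, beside 11.5% of all genes that fell and 6.43% that rose. The spike ratios of the groups did not overlap, so the spike-adjusted fit cannot fully tell the 3' ratio apart from the exposure. The part of the 3' ratios in each result was not tested beyond this.

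**Figure D2:**
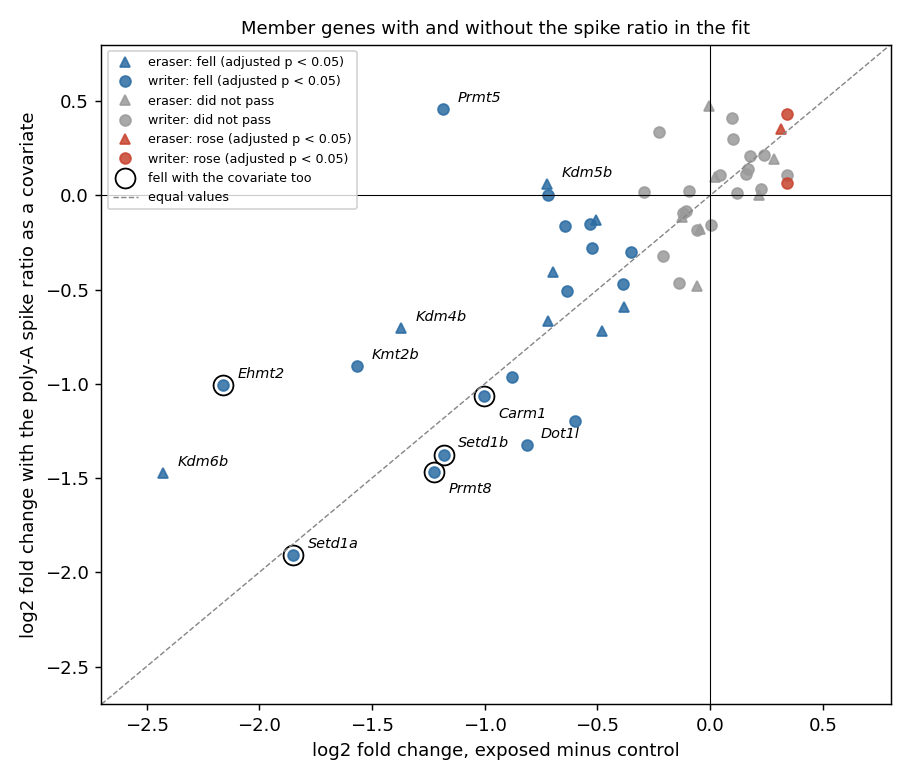
Log2 fold change of each of the 54 genes without (horizontal axis) and with (vertical axis) the poly-A spike ratio as a covariate, for writers (circles) and erasers (triangles). The 5 ringed genes, Setd1a, Setd1b, Ehmt2, Carm1 and Prmt8, fell in both fits, and Prmt5 lies far above the dashed line of equal values, at 0.46 against -1.19.

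Promoter windows of 300 bases, from 250 before to 50 after the start of transcription, were held by RefSeq (GRCm38.p6) for 42 of the 54 genes. They are shown for Setd1a, a writer whose fall held in each alternative run, for the partners Ehmt2 and Ehmt1, of which only the first fell, and for Ezh2, which did not pass. Capitals mark GC boxes (GGGCGG, or CCGCCC on the other strand) and CCAAT boxes (CCAAT, or ATTGG on the other strand).
Setd1a (chr7:127777139-127777438, plus strand): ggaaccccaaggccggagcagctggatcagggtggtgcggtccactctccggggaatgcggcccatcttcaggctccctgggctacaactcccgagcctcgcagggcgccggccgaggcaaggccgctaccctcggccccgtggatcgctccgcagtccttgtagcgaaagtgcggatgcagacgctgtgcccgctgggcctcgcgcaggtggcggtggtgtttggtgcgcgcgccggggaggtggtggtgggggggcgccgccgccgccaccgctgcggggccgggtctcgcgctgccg
Ehmt2 (chr17:34898224-34898523, plus strand): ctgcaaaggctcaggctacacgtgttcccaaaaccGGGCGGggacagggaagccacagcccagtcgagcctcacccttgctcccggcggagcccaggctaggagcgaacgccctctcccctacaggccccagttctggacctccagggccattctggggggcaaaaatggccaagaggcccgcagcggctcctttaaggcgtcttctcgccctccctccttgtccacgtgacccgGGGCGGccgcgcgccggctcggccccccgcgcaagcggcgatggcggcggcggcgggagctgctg
Ehmt1 (chr2:24919560-24919859, minus strand): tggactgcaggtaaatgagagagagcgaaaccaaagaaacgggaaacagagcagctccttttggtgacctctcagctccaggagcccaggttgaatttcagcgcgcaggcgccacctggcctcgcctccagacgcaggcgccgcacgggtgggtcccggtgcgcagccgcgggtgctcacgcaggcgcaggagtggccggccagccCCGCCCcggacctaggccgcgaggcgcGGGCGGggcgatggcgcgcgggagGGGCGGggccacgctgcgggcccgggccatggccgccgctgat
Ezh2 (chr6:47594981-47595280, minus strand): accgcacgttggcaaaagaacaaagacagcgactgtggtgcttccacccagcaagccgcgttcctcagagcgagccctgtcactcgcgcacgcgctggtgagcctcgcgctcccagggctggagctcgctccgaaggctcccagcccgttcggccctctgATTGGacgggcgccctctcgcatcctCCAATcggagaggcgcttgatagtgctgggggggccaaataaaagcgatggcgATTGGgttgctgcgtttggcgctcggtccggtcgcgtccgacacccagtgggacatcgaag
Ehmt2, in the first of its 2 windows, and Ehmt1 hold 2 and 3 GC boxes, Ezh2 holds 3 CCAAT boxes, and Setd1a holds neither. All 4 windows are rich in CpG, with 35 such pairs in Setd1a, 28 in Ehmt2, 34 in Ehmt1 and 31 in Ezh2. A GC box was in 59.5% of the 42 member windows and in 35.9% of the 27025 windows of all genes, and the median number of CpG pairs was 24 against 7. Here all genes are those with a RefSeq window, whether or not they were bright enough to be tested, whereas every member was. The shares were not compared with those of the 13956 tested genes. Within the members the share with a GC box was 53.3% among the 15 that fell and 63.0% among the 27 that did not. CCAAT boxes were in 42.9% of members and 37.9% of all genes, the hypoxia response core (ACGTG, both strands) in 23.8% and 19.7%, the TATA box (TATAAA, both strands) in 2.38% and 14.2%, and a FOXO motif (GTAAACA, both strands) in 2.38% and 3.55%. A match describes these letters only, overlaps between motifs were kept, and 1 window was searched per gene.

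The H3K4 writers held the largest share of fallen genes among the groups with more than 1 gene. Of 8 measured 6 fell and 0 rose, with a median 0.76 under that of all genes on the log2 scale. Setd1a, a catalytic subunit of the SET1 complexes that trimethylate H3K4 at promoters, had signals of 928, 972 and 1039 in the control and 287, 269 and 260.0 in the exposed pools. The exposed values lay close together and far below every control value. Its log2 fold change was -1.85 ± 0.11 (SE; adjusted p = 1.4e-04), and it fell in each of the 20 alternatives run, with an adjusted p of at most 0.021. The other probe set of Setd1a was too dim on average to be tested. It had 1.9, 16.8 and 23.9 in the control and 24.3, 37.6 and 29.8 in the exposed pools. Setd1b, the other SET1 enzyme, had 1222, 1198 and 1157 in the control and 622, 478 and 487 in the exposed pools. This is a change of -1.18 ± 0.12 (adjusted p = 5.4e-04), and its second tested probe set fell by 1.59 on the log2 scale.

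Kmt2b, which trimethylates H3K4 at the promoters of developmental genes, had 1785, 1983 and 1596 in the control and 632, 737 and 467 in the exposed pools. Its log2 fold change of -1.57 ± 0.17 (adjusted p = 5.9e-04) became -0.90 in the spike-adjusted fit (adjusted p = 0.14). Kmt2d, a writer of H3K4 monomethylation at enhancers, fell by 0.88 ± 0.13 on the log2 scale, Kmt2a, the writer known for maintaining Hox expression, by 0.64 ± 0.15, and Kmt2e, a family member whose own activity on histones is weak or absent, by 0.52 ± 0.13. Kmt2c, the paralog of Kmt2d, stood at 0.12 ± 0.10 and did not pass (adjusted p = 0.40), although a second of its probe sets fell, with 939, 1017 and 896 in the control and 386, 576 and 280 in the exposed pools. Setd7, a monomethylase of H3K4 and of many other proteins, stood at -0.29 ± 0.11 without passing (adjusted p = 0.062) and without overlap.

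**Figure D3:**
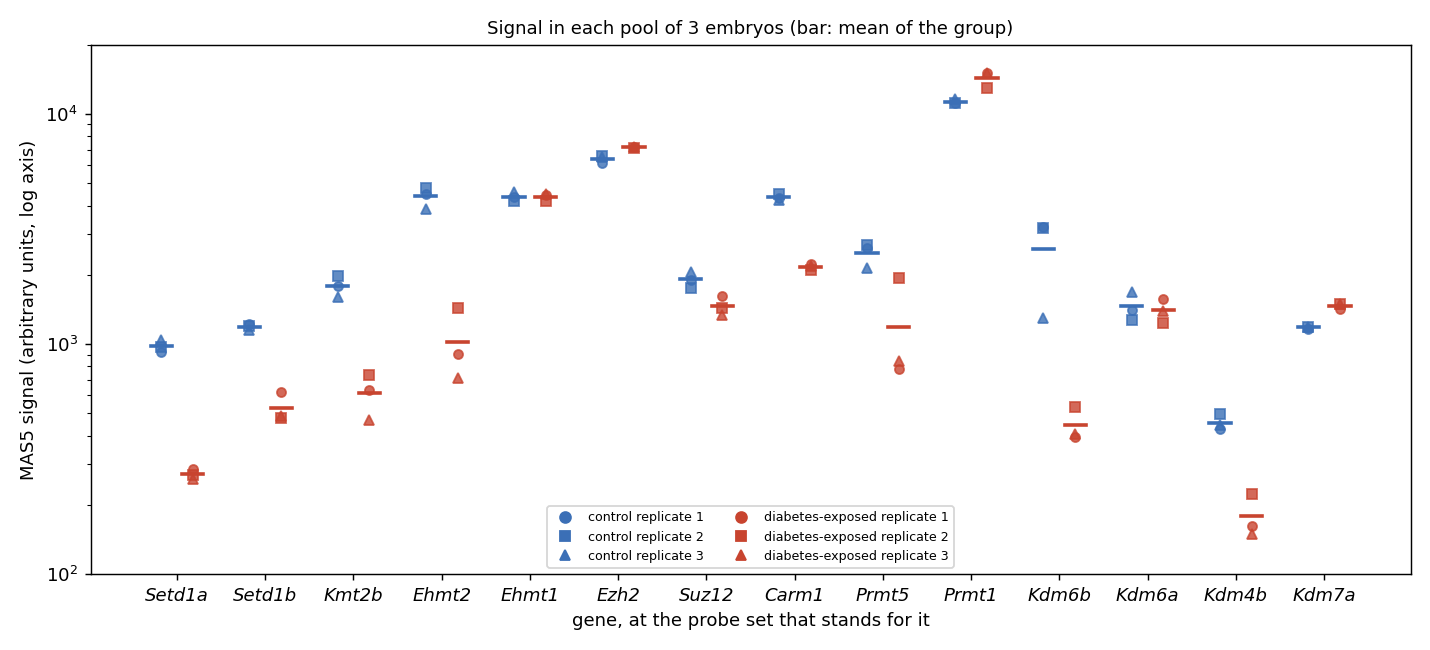
MAS5 signal (arbitrary units, log axis) of 14 genes in each pool of 3 embryos, control in blue and diabetes-exposed in red, with the group mean as a bar and the replicate number as the symbol. The groups stand clearly apart for Setd1a, at 928 to 1039 against 260.0 to 287, and overlap for Ehmt1 and Kdm6a; levels may be compared between pools of a gene but not between genes.

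The H3K9 writers held both directions. Of 5 measured 2 fell and 1 rose, and the median of the 5 was 0.00. Ehmt2, known as G9a, which mono- and dimethylates H3K9 as a dimer with Ehmt1, had 4494, 4784 and 3868 in the control and 907, 1440.2 and 712 in the exposed pools. The exposed pools were all lower, and replicate 2 the least so. Its log2 fold change was -2.16 ± 0.22 (adjusted p = 5.1e-04), and it still fell in the spike-adjusted fit, to -1.01 (adjusted p = 0.041). Ehmt1, its partner, had 4367, 4189.6 and 4558 in the control and 4465, 4172 and 4492 in the exposed pools, which overlapped, with a log2 fold change of 0.00 ± 0.08 (adjusted p = 0.99). A second probe set of Ehmt2 was too dim on average to be tested, with 562, 539 and 31.8 in the control and 3.5, 2.4 and 2.0 in the exposed pools.

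Setdb1, which trimethylates H3K9 at retroelements together with Trim28, had 1706, 1648 and 1730.4 in the control and 1160.2, 1352 and 1024 in the exposed pools and fell by 0.53 ± 0.11 on the log2 scale (adjusted p = 0.0074). In the spike-adjusted fit its change was -0.15 (adjusted p = 0.76), and its call also ended under median centring and with the mean of all probe sets. Of its 3 tested probe sets only this 1 passed, and the others, both dim, stood at 0.83 and -2.78. Suv39h2, a writer of H3K9 trimethylation in pericentric heterochromatin, had 605, 577 and 633 in the control and 676, 810.2 and 819 in the exposed pools. It rose by 0.34 ± 0.12 on the log2 scale, with an adjusted p of 0.049. That call ended when any 1 of control replicates 1, 2 and 3 or exposed replicates 2 and 3 was left out (adjusted p = 0.12, 0.16, 0.064, 0.083 and 0.15). Another probe set of Suv39h2 fell, with 858, 845 and 833 in the control and 374, 673 and 357 in the exposed pools. Setdb2, a relative of Setdb1, stood at 0.10 ± 0.13 (adjusted p = 0.57).

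Of the 4 core subunits of PRC2, which writes H3K27 methylation, 1 fell and 0 rose. Ezh2, its main catalytic subunit in the embryo, had 6119, 6589 and 6485 in the control and 7215, 7130.3 and 7197 in the exposed pools. All exposed pools were higher, yet the difference of 0.17 ± 0.07 on the log2 scale did not pass (adjusted p = 0.10) and turned to -0.13 under quantile and -0.06 under cyclic loess normalization. Eed, the subunit that binds trimethylated H3K27, had 2595, 2769.8 and 2952 in the control and 3163, 3088 and 3030.3 in the exposed pools, at 0.16 ± 0.08 (adjusted p = 0.17). Ezh1, the catalytic subunit that prevails in differentiated tissue, had 289.7, 309 and 301 in the control and 262, 249 and 267 in the exposed pools, at -0.21 ± 0.13 (adjusted p = 0.26). Neither Eed nor Ezh1 overlapped between the groups, and neither passed.

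Suz12, the scaffold of PRC2, had 1905, 1760 and 2064 in the control and 1615, 1435 and 1344 in the exposed pools at the probe set that stands for it, which the array's naming marks as able to bind more than 1 transcript. It fell by 0.38 ± 0.10 on the log2 scale (adjusted p = 0.021). Without control replicate 1, control replicate 3 or exposed replicate 3 it did not pass (adjusted p = 0.069, 0.062 and 0.074). The next of its probe sets by signal fell much further, with 1697, 1771 and 1579 in the control and 429, 798 and 395 in the exposed pools, a change of -1.71. In all 4 of its 6 tested probe sets fell, and exposed replicate 2 was nearest to the controls in the 2 largest of these falls.

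Of Kdm6a and Kdm6b, the 2 genes grouped here as erasers of H3K27 methylation, 1 fell and 0 rose. Kdm7a, which also acts on H3K27 and rose, is counted below with the erasers of H3K9 or H3K36 methylation. Kdm6b, also called Jmjd3, which removes H3K27 methylation when silenced genes are activated, had 3236, 3200 and 1299 in the control and 395, 535 and 409 in the exposed pools. All exposed values were under all control values, and control replicate 3 stood well under the other controls. Its log2 fold change of -2.43 ± 0.32 (adjusted p = 0.0012) was the largest fall among the members, and in the spike-adjusted fit it was -1.47 and did not pass (adjusted p = 0.28). Of its other tested probe sets 0 of 2 passed, at -0.57 and -0.64. Kdm6a, the X-linked eraser that also belongs to the Kmt2c and Kmt2d complexes, had 1411, 1273 and 1692 in the control and 1572, 1233 and 1395 in the exposed pools. The groups overlapped at this probe set, at -0.06 ± 0.13 (adjusted p = 0.78), while a second one fell by 1.105 on the log2 scale, from 485 to 616 in the control to 176 to 383 in the exposed pools.

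Of the 4 writers of H3K36 methylation 2 fell and 0 rose. Nsd2, a dimethylase of H3K36, had 1478, 1544 and 1638 in the control and 1103, 1051 and 859 in the exposed pools. This was a fall of 0.64 ± 0.12 on the log2 scale (adjusted p = 0.0037). Of the 4 tested probe sets of Nsd2 2 fell, and the others overlapped, at 0.12 and -0.10. Nsd1, another dimethylase of H3K36, had 2063, 2183 and 2262 in the control and 1754, 1745 and 1608 in the exposed pools. It fell by 0.35 ± 0.09 (adjusted p = 0.013). When control replicate 2 was left out it missed the threshold (adjusted p = 0.057), and its call also ended with the mean of all probe sets. Of the 3 tested probe sets of Nsd1 only this 1 passed, and the others, both dimmer, stood at 0.33 and -1.18. Setd2, the trimethylase of H3K36, stood at -0.12 ± 0.10 and did not pass (adjusted p = 0.37). Nsd3, their relative, had 957, 908 and 903 in the control and 1080.2, 827 and 778 in the exposed pools and overlapped, at -0.06 ± 0.13. Dot1l, which alone writes H3K79 methylation, had 636, 660.4 and 653 in the control and 343, 309.7 and 475 in the exposed pools and fell by 0.81 ± 0.17 (adjusted p = 0.0058).

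Among the 3 writers of H4K20 methylation only Kmt5c fell at the probe set that stands for the gene. Kmt5c, which trimethylates H4K20, had 1164, 1024 and 735 in the control and 554, 706 and 500.5 in the exposed pools. It fell by 0.72 ± 0.19 on the log2 scale (adjusted p = 0.018). Its call ended without control replicate 1, control replicate 2, exposed replicate 1 or exposed replicate 3 (adjusted p = 0.074, 0.066, 0.064 and 0.069), and its change was 0.0023 in the spike-adjusted fit. Kmt5a, the monomethylase, stood at 0.18 ± 0.13 and Kmt5b, the dimethylase, at -0.11 ± 0.11, and neither passed there. A dimmer probe set of each did fall, at log2 fold changes of -0.44 for Kmt5a (adjusted p = 0.014) and -1.203 for Kmt5b (adjusted p = 0.0021). The contrast of Kmt5c with Kmt5a and Kmt5b thus depends on the probe set. Setd3, Setd4, Setd5 and Setd6, SET-domain proteins with other or less certain targets, lay between -0.14 and 0.24, and 0 of the 4 passed in either direction at the probe set that stands for the gene. At other, dimmer probe sets Setd6 fell by 0.70 and Setd5 by 2.15 on the log2 scale, and Setd4 rose by 0.64.

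Of the 9 arginine writers measured 4 fell and 1 rose. Carm1, a coactivator that methylates histone H3 arginines asymmetrically, had 4317, 4484 and 4218 in the control and 2231, 2096 and 2176 in the exposed pools. The replicates of each group lay close together, and the change of -1.002 ± 0.077 (adjusted p = 1.9e-04) held in all 19 alternatives that could be run for it, at -1.06 in the spike-adjusted fit (adjusted p = 0.017). The only probe set of Carm1 is marked, like that of Suz12, as able to bind more than 1 transcript. The run that omits such probe sets therefore left Carm1 out. Prmt8, a membrane-bound relative of Prmt1 found mainly in the nervous system, had 726, 630 and 717 in the control and 275.1, 275.4 and 339 in the exposed pools. It fell by 1.23 ± 0.14 on the log2 scale (adjusted p = 6.2e-04) and, in the spike-adjusted fit, fell by 1.47 (adjusted p = 0.043).

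Prmt5, the main enzyme of symmetric arginine dimethylation, had 2620, 2690.0 and 2132 in the control and 779, 1943 and 842 in the exposed pools. Exposed replicate 2 lay near the lowest control pool, and exposed replicates 1 and 3 far below it. The change of -1.19 ± 0.31 passed (adjusted p = 0.016), and ceased to pass without control replicate 1, control replicate 2, exposed replicate 1 or exposed replicate 3 (adjusted p = 0.057, 0.054, 0.063 and 0.063). The only probe set of Prmt5 is also marked as able to bind more than 1 transcript. Prmt6, an asymmetric writer, fell by 0.60 ± 0.18 on the log2 scale (adjusted p = 0.030). Prmt1, which carries out most asymmetric arginine methylation, had 11205, 11138 and 11607 in the control and 15050, 13000 and 14996 in the exposed pools. It rose by 0.34 ± 0.08 (adjusted p = 0.013), without control replicate 1, control replicate 2 or exposed replicate 1 it did not pass (adjusted p = 0.059, 0.057 and 0.058), and under cyclic loess normalization its change was -0.0052. Prmt2, Prmt3, Prmt7 and Prmt9 lay between -0.23 and 0.34 and did not pass at the probe set that stands for the gene. At other, dimmer probe sets Prmt2 rose by 0.39 on the log2 scale (adjusted p = 0.014) and Prmt3 fell by 2.58 (adjusted p = 5.9e-04). That probe set of Prmt2 is marked as able to bind more than 1 transcript.

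Of the 5 erasers of H3K4 methylation 3 fell and 0 rose. Kdm1a, the flavin-dependent eraser known as LSD1, had 5429, 5141 and 5177 in the control and 4200.1, 3706 and 4193 in the exposed pools, and its 2 probe sets both fell, by 0.38 ± 0.08 at the first (adjusted p = 0.0077) and 1.12 at the second. The first, but not the second, is marked as able to bind more than 1 transcript. Kdm5b, a Jumonji eraser of H3K4 trimethylation, had 1380.0, 1385 and 1248 in the control and 715, 1067 and 698 in the exposed pools, a change of -0.72 ± 0.16 (adjusted p = 0.0094) that was 0.06 in the spike-adjusted fit. Kdm1b and Kdm5a, relatives of these, stood at -0.05 and 0.02 and did not pass.

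Kdm5c is the X-linked member of the Kdm5 family, with a homolog on the Y chromosome, Kdm5d. It had 840.1, 727 and 1008 in the control and 723, 578 and 544 in the exposed pools, the highest exposed value just under the lowest control value. It fell by 0.48 ± 0.16 on the log2 scale (adjusted p = 0.042), but did not pass without control replicate 1, control replicate 3, exposed replicate 2 or exposed replicate 3 (adjusted p = 0.10, 0.12, 0.066 and 0.14). Of its 7 tested probe sets 4 fell and 0 rose, the most marked with 765, 690.2 and 749 in the control and 414, 396 and 384 in the exposed pools. The sexes of the pooled embryos are not given. Xist, which marks female cells, had 5014, 2430.4 and 8197 in the control and 11157, 68.8 and 10814 in the exposed pools, and Kdm5d had 477, 744 and 173 against 518, 1086 and 611. Exposed replicate 2 had the lowest Xist and the highest Kdm5d signal, and the part of the sexes in the levels of Kdm5c and Kdm6a was not tested.

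Of the 9 erasers of H3K9 or H3K36 methylation 4 fell and 1 rose. Kdm4b, which removes H3K9 trimethylation, had 426, 496 and 444 in the control and 162, 223 and 149.8 in the exposed pools and fell by 1.37 ± 0.18 on the log2 scale (adjusted p = 0.0011). In the spike-adjusted fit the change was -0.71 and did not pass (adjusted p = 0.31). Kdm4a, a relative that also acts on H3K36, had 879.6, 824 and 597 in the control and 478, 485 and 436 in the exposed pools and fell by 0.70 ± 0.16 (adjusted p = 0.0092), whereas Kdm4c stood at 0.28 ± 0.16 with overlapping groups (adjusted p = 0.21). Kdm3b, an eraser of H3K9 dimethylation, fell by 0.50 ± 0.13 (adjusted p = 0.016), and Kdm3a stood at -0.12 ± 0.08 (adjusted p = 0.28).

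Kdm2a, which removes H3K36 dimethylation at CpG islands, had 1263, 1339 and 1043 in the control and 763, 715 and 724 in the exposed pools, a fall of 0.72 ± 0.12 on the log2 scale (adjusted p = 0.0023). Its paralog Kdm2b, which also recruits Polycomb complexes to CpG islands, stood higher in all exposed pools, at 0.21 ± 0.08, and did not pass (adjusted p = 0.068). Kdm7a, an eraser of H3K9 and H3K27 dimethylation, had 1165, 1187 and 1192 in the control and 1419, 1497 and 1491 in the exposed pools. The change of 0.31 ± 0.08 passed (adjusted p = 0.019), though not without control replicate 1, control replicate 2 or exposed replicate 3 (adjusted p = 0.075, 0.070 and 0.059). Kdm8, whose activity on histones is debated, stood at 0.00 ± 0.17.

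Paralogs were also compared with each other. For 19 pairs of related enzymes the difference of their log2 signals was compared between the groups pool by pool, and in 16 pairs the control and exposed values of that difference did not overlap. The same was so in 48.6% of all possible pairs of the 13956 genes, and the 19 pairs share genes with each other. The exact permutation test, two-sided, gave p = 0.1 for these 16, the smallest that 3 against 3 pools allow, and 0.12 after adjustment over the 19 pairs, so that 0 of them could pass. The widest gaps were those of Kdm6a over Kdm6b, which grew by 2.37 on the log2 scale, and of Ehmt1 over Ehmt2, which grew by 2.16. The ratio of Prmt1 to Prmt8 grew by 1.56, that of Prmt1 to Carm1 by 1.34, and that of Kmt2c to Kmt2d by 1.001. The ratio of Ezh1 to Ezh2 fell by 0.38 and that of Kdm2a to Kdm2b by 0.93. Kdm5b and Kdm5c, Kdm1a and Kdm1b, and Kmt5b and Kmt5c were the 3 pairs that overlapped.

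Probe sets of the same gene often gave different changes. Of the 153 member probe sets 125 were bright enough to be tested, and 53 of these fell, 8 rose and 64 did not pass, beside 21.8% that fell and 14.4% that rose of all tested probe sets. At least 1 probe set fell in 35 of the 54 genes, among them 25 writers and 10 erasers, and at least 1 rose in 8. Of all genes tested 32.3% had a probe set that fell and 20.9% one that rose, with 1.81 tested probe sets a gene on average against 2.31 for the members. In 33 genes with several tested probe sets, the second by signal had the lower fold change in 19 (57.6%), beside 62.7% of the 6514 such genes on the array. In Nsd3, Kdm5b, Kdm2a, Suv39h2 and Kdm7a probe sets were called in opposite directions.

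Nsd3 had the most mixed record, with 3 probe sets that fell, at log2 fold changes of -0.80, -0.998 and -1.93, and 1 that rose by 1.58, from 47.2, 91.8 and 52.4 in the control to 190.9, 163.9 and 193.1 in the exposed pools. A probe set of Kdm5b rose by 1.15, from 104.5, 150.7 and 183 to 315, 300.3 and 335. One of Kdm2a rose by 0.66, from 411, 402 and 465 to 628, 577 and 839. One of Kdm7a fell by 1.95, from 282, 368 and 175 to 59.5, 58.0 and 91.4. For these 5 genes the direction thus depends on the probe set. The stretch of transcript that each probe set reads was not analysed here.

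**Figure D4:**
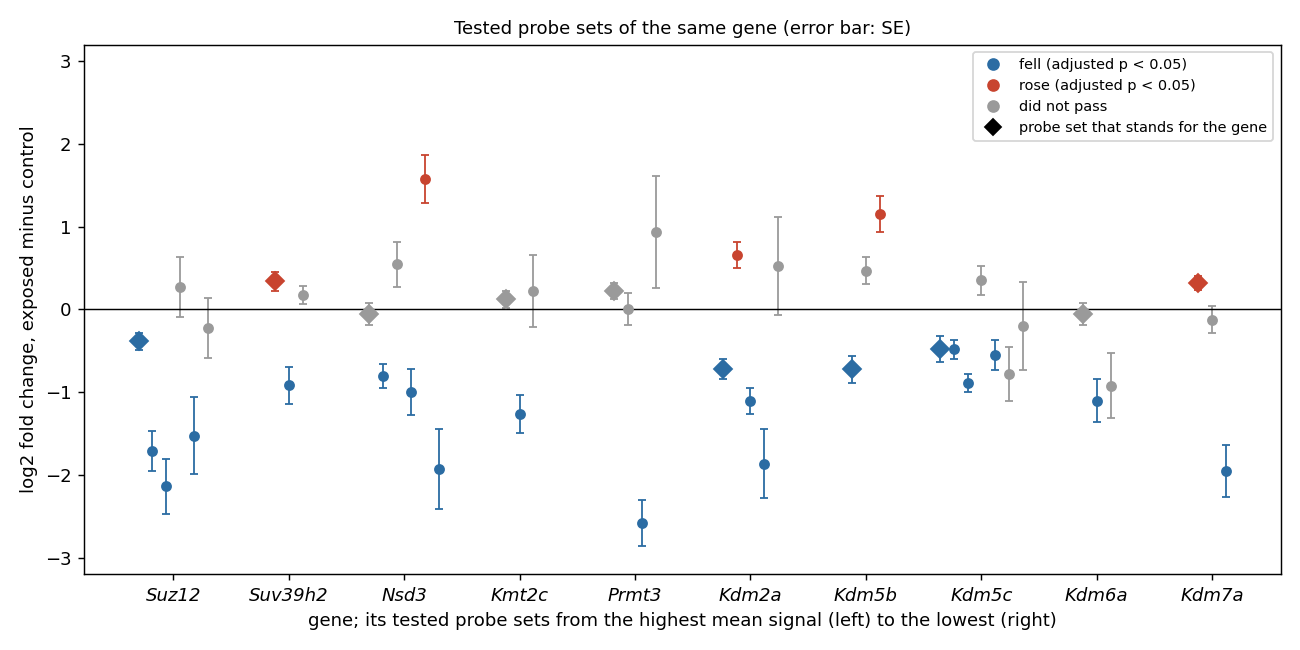
Log2 fold change (exposed minus control, with standard error) of every tested probe set of 10 genes, ordered from left to right by falling mean signal, the diamond being the probe set that stands for the gene. Nsd3 spans from -1.93 to 1.58, Suz12 has 4 probe sets that fell and 0 that rose, and Prmt3 has a probe set at -2.58 beside a diamond at 0.22.

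The partners of these enzymes were read from 8 lists of related genes, of which 83 of 88 genes were measured. Together 29 fell (34.9%) and 13 rose (15.7%), beside 19.9% and 17.6% of all genes. The lists are short, and shares of single lists are given as counts only. Of 12 partners of the H3K4 writers 7 fell and 1 rose, with a median of -0.43. Men1, or menin, which brings Kmt2a and Kmt2b to their targets, had 1723, 1699.7 and 1602 in the control and 677, 789 and 657 in the exposed pools and fell by 1.25 ± 0.10 on the log2 scale (adjusted p = 2.4e-04). Hcfc1, a docking subunit of the same complexes, fell by 1.05 ± 0.12, and Dpy30, a small subunit shared by all of them, rose by 0.61 ± 0.07. Of 6 measured partners of Kdm1a 2 fell and 0 rose, with Rcor2, a corepressor of the nervous system, at -1.30 ± 0.12 and the corepressor subunit Hmg20b at -0.81 ± 0.19. Of 6 partners of Dot1l 3 fell and 1 rose, led by Mllt6 at -1.26 ± 0.11 and Mllt1 at -1.08 ± 0.17, subunits that accompany Dot1l or the elongation machinery, against Mllt3 at 0.29 ± 0.09.

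Of 7 accessory subunits of PRC2 2 fell, Aebp2 by 0.96 ± 0.08 and Phf1 by 0.73 ± 0.20 on the log2 scale, and 2 rose, Mtf2 by 0.70 ± 0.13 and Rbbp7 by 0.44 ± 0.10. In PRC1, the Polycomb complex that binds the mark PRC2 writes, 6 of 17 measured fell and 2 rose. Its chromodomain subunit Cbx2, which reads H3K27 methylation, had 2305, 2514 and 2411 in the control and 855, 1029 and 589 in the exposed pools, a fall of 1.58 ± 0.18 (adjusted p = 7.2e-04). The subunit Phc2 fell by 0.93 ± 0.16, while Yaf2 rose by 0.66 ± 0.10 and the ubiquitin ligase Rnf2 by 0.33 ± 0.10. Among 8 partners and readers of H3K9 methylation 2 fell and 3 rose. Wiz, a zinc finger protein that holds Ehmt1 and Ehmt2 together, fell by 1.25 ± 0.12 and Trim28 by 0.49 ± 0.08, while Zfp644, another Ehmt2 partner, rose by 0.46 ± 0.09 and Uhrf1, a reader that guides maintenance of DNA methylation, by 0.34 ± 0.09.

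Of 4 partners of Prmt5 0 fell and 2 rose, Coprs by 0.70 ± 0.12 and Clns1a by 0.47 ± 0.09 on the log2 scale, both adaptors that select its substrates. Of 23 further histone methylation enzymes measured 7 fell and 2 rose. Riox1, a Jumonji-family oxygenase, fell by 1.44 ± 0.12 and Phf2, an eraser of H3K9 dimethylation, by 0.93 ± 0.11, while Smyd4 and the muscle protein Smyd1 rose by 0.48 ± 0.14 and 0.45 ± 0.14. In the spike-adjusted fit Men1 (-0.91, adjusted p = 0.043), Aebp2 (-0.99, adjusted p = 0.031), Wiz (-1.45, adjusted p = 0.038) and Riox1 (-1.46, adjusted p = 0.038) still fell, and the other 22 genes named from these lists did not pass.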

How the data were processed

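RNA of 6 pools of whole embryos was hybridised to Affymetrix Mouse 430 2.0 arrays. The authors deposited 1 linear signal intensity for each probe set and array, computed with GCOS and MAS5 (versions not given in the sources used here) by setting perfect-match against mismatch probes and scaling the array. Per array, the mean without the lowest and highest signals was 500.0, so a signal says how a transcript stands among the rest of its pool. An array has no depth other than its signal over background. The median signal was 82.5 to 103.3 in control and 74.1 to 78.9 in exposed pools, and the number of arrays limits the precision. Detection calls were not used.

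Log2 of the signals was fitted with limma 3.58.1 in R 4.3.3 (lmFit, eBayes with a variance trend), comparing 3 exposed with 3 control pools. The dimmest 33.3% of probe sets by mean signal and 64 control probe sets were left out, which left 30024 probe sets and 13956 genes, and removed 28 probe sets but 0 genes of the members. Benjamini-Hochberg adjustment ran over all tested probe sets. Fold changes are given with the standard error of the fit. The labels give the pools as biological replicates with separate embryos. No 2 arrays of a group held the same signals (correlation of log2 signals 0.9588 to 0.9797). The groups share replicate numbers, which stand for separate pools: the deviations of same-numbered pools correlated at 0, 0.076 and 0.118, so the numbers were not taken as pairs. The spike ratio averages 8 log2 ratios, each of a middle probe set to the 3' probe set of the same poly-A transcript. Probe sets were named by the platform's annotation (34958 with 1 symbol, 932 with several, 9211 with none). Promoters came from RefSeq, 1 window per gene.

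The members, gene lists, pairs of paralogs, tests and alternatives were chosen with earlier results of these data known, so no list was tested as a whole. Signals in each pool are given for up to 3 genes per group with the largest fall or rise, for core PRC2, the H3K27 erasers and Kdm5c, and for genes with opposite calls, with added values beside them for second probe sets and for genes of interest chosen after the values were seen. From each related list up to 2 genes that rose and 2 that fell with the smallest adjusted p are named. The fit was tested on simulated data with independent noise for each probe set and no 3' bias, unlike these arrays. That test therefore says nothing about such a bias. Alternatives were median centring, cyclic loess and quantile normalization, no filter or one of 50%, a pseudocount of 32, no variance trend, averaging a gene over its probe sets, omitting probe sets able to bind more than 1 transcript, the methods' t-test, a replicate block, the spike ratio as a covariate, and leaving out pools. Figures were drawn with matplotlib 3.10.9.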

Additional observations from a re-analysis of the deposited data

How the results depend on the processing

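Setd1a and Carm1 kept their calls under every alternative run for them, and Ehmt2, Setd1b and Prmt8 lost theirs only under the methods' t-test with Benjamini-Hochberg adjustment. The share of all genes that fell was 19.9% as reported, 8.65% under median centring, 1.69% under that test, 15.8% without the variance trend, 1.73% when the spike ratio was a covariate and 11.5% without exposed replicates 1 and 3, and the share that rose was 17.6%, 29.4%, 0.387%, 12.2%, 0.0788% and 6.43%. The count of writers that fell, 17, was 8 under median centring, 2 under the methods' t-test with Benjamini-Hochberg adjustment, 11 without the variance trend, 5 when the spike ratio was a covariate and 10 without exposed replicates 1 and 3, and 12 to 19 with any 1 pool left out. The count of erasers that fell, 8, was 3 under median centring, 0 under the methods' t-test with Benjamini-Hochberg adjustment, 5 under that test unadjusted, 0 with the covariate, 4 without exposed replicates 1 and 3, and 6 to 8 with any 1 pool left out. The 2 writers that rose were 6 under median centring, 1 under cyclic loess normalization, without the filter or with the replicate block, and 0 under the methods' adjusted t-test, without the variance trend, with the covariate or without exposed replicates 1 and 3, and 0 to 1 with a pool left out. The 1 eraser that rose was 3 under median centring, 2 under quantile normalization and the unadjusted t-test, 0 with the mean of all probe sets, the adjusted t-test, no variance trend, the covariate or without exposed replicates 1 and 3, and 0 to 2 with a pool left out. The replicate block changed no other count of fallen genes, and among the named genes it ended only the call of Suv39h2, as 1 of the 2 writers that rose. With any 1 pool left out 13.2% to 22.5% of all genes fell and 10.8% to 20.1% rose. Under the methods' t-test unadjusted 18.6% of all genes fell and 18.3% rose. The share of all genes that rose was 20.3% under cyclic loess and 24.1% under quantile normalization. It was 12.6% with the mean of all probe sets, 12.4% without the filter and 17.3% with the replicate block.

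The median over writers, -0.22, was -0.14 under cyclic loess and under quantile normalization, -0.34 with the mean of all probe sets, 0.086 under median centring, -0.12 with the covariate, -0.17 without probe sets that may bind several transcripts, and -0.27 to -0.20 with a pool left out. The median over erasers, -0.25, was -0.28 under cyclic loess normalization, -0.36 with the mean of all probe sets, 0.049 under median centring, -0.15 with the covariate, -0.30 without such probe sets, and -0.28 to -0.22 with a pool left out. Of the 23 called member genes with values by setting, 23 kept their call under a filter of 50% and a pseudocount of 32, 21 without a filter, 13 under median centring, 15 without the variance trend, 5 with the covariate and 2 under the methods' t-test with Benjamini-Hochberg adjustment. Signs turned for Ezh1 (loess 0.023, median centring 0.095, quantile 0.11), Ezh2 (loess -0.064, quantile -0.13), Kdm5b (mean of probe sets 0.30, covariate 0.060), Kdm6a (median centring 0.25, quantile 0.011, without control replicate 3 0.056, without exposed replicate 2 0.032), Kdm7a (mean of probe sets -0.59), Kmt5c (covariate 0.0023), Nsd3 (loess 0.035, median centring 0.24, quantile 0.12, without exposed replicate 3 0.036), Prmt1 (loess -0.0052), Prmt5 (covariate 0.46) and Suv39h2 (mean of probe sets -0.13). The cause was not tested. Fewer pools and the covariate raise the standard error, and dim probe sets bound what can be read.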
